A study of Mus musculus with 240 samples.

Results

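Cells taken from mouse gliomas were compared with oligodendrocyte precursor cells (OPCs) of wild-type mice at the same time, 150 days after the start of tamoxifen treatment (dpi), by bulk RNA sequencing. The comparison takes every bulk sample labelled as a tumour at 150 dpi and every bulk wild-type sample of that time, with libraries that carry the same animal number summed. This gave 7 tumour animals (14 libraries) and 6 wild-type animals (6 libraries), 13 of the 37 bulk animals and 20 of the 48 bulk libraries in a series of 240 libraries.

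The series follows OPCs from 12 to 150 dpi through the premalignant phase of glioma. The tumours, labelled as brain tumor cells, have the genotype Trp53-/- Nf1-/-, and the OPCs of the other group are wild-type (WT). In both groups time counts from the start of tamoxifen, and the samples, all labelled tdTpositive, were cut from 10 µm brain sections by laser-capture microdissection. The tumour animals were 4 males and 3 females and the WT animals 4 males and 2 females. Animals are named by label and number, as in Tumor_16713 or WT_21593. The cell type that drives the deletion, the strain and whether the libraries of an animal come from separate captures are not given in the sources used here. RNA was amplified linearly with T7 polymerase before sequencing. CKO mice at 90 dpi, which have the genotype Trp53-/- Nf1-/- but are not labelled as tumours (7 animals), and WT mice at 90 dpi (5 animals) serve below for the comparison over time.

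OPCs are the dividing, migratory glia of the adult brain that give rise to myelinating oligodendrocytes, and they are a known cell of origin of glioma. Nf1 encodes neurofibromin, a GTPase-activating protein that switches RAS off and so restrains the RAS-MAPK cascade. Trp53 encodes the transcription factor p53, which halts the cell cycle or starts cell death after DNA damage.

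Summed per animal, tumours held 4.91 to 31.3 M counts (M, 1000000 counts; median 24.0 M) and WT animals 2.32 to 14.8 M (median 4.19 M). A count of 0 in a WT animal therefore allows up to 0.203 to 1.30 counts per 1000000 (CPM), counting error only. The libraries of 1 tumour correlated at r = 0.972 to 0.995 across genes, tumours among themselves at 0.939 to 0.975 and WT animals at 0.957 to 0.987. Genes are not independent replicates. The mitochondrial share of counts was 1.29 to 3.87% in tumours and 1.73 to 2.72% in WT. The biological coefficient of variation was 0.578 among tumours and 0.392 among WT animals.

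Tumor_16713 stood apart in 1 of its 2 libraries by hormone genes of the pituitary. Values of single libraries are CPM of that library's own total, without TMM scaling. Growth hormone (Gh) was at 13470 CPM in that library and 2.49 in the other, and prolactin (Prl) at 4914 and 3.85. Cga, the shared subunit of the glycoprotein hormones, was at 378 and 0, and Pomc, the precursor of corticotropin, at 324 and 0.679. In the other 6 tumours and the WT animals Gh was at 0, Prl reached 2.02 and Pomc 1.84 CPM. The myelin genes Mobp (391 and 1.14 CPM) and Mbp (1964 and 58.1) were high in the same library. Results that rest on this animal are given with and without it, and taking the deepest library of each animal, which drops the hormone library, left 7502 calls against 7556.

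**Figure D1:**
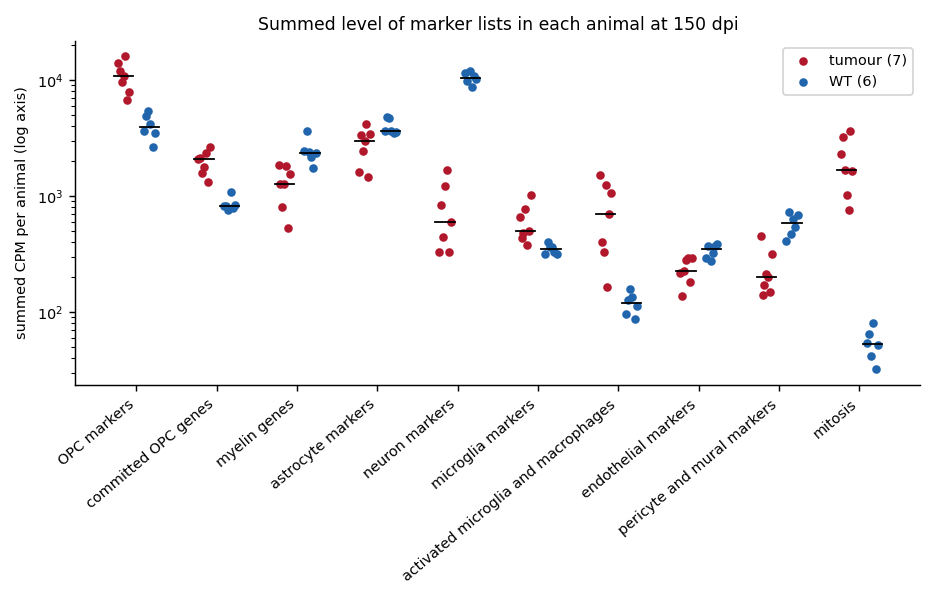
Summed CPM (log axis) of the genes of 10 lists in each of the 7 tumour and 6 WT animals at 150 dpi, with a line at each group's median. Neuron markers were at 327 to 1670 CPM in tumours against 8682 to 12000 in WT, whereas OPC markers and mitosis genes were higher in tumours.

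OPC markers were counted in every animal of both groups, but in every WT animal the 15 neuron markers summed higher than the 20 OPC markers. Summed over 20 OPC markers, the level was 6710 to 15940 CPM in tumours (median 10770) and 2627 to 5419 in WT (median 3896), and no tumour lay below any WT animal. Olig2 ranged from 138 to 333 CPM in tumours (median 189) and from 58.5 to 86.7 in WT (median 81.2). This lineage transcription factor thus separated the groups, with every tumour higher. Neuron markers were strong in the WT captures: over 15 genes the sum was 327 to 1670 CPM in tumours (median 594) and 8682 to 12000 in WT (median 10460), and the groups did not overlap. Endothelial markers summed to 138 to 294 CPM in tumours (median 227) and 277 to 382 in WT (median 348), and pericyte and mural markers to 141 to 450.3 CPM in tumours (median 199.8) and 409 to 725 in WT (median 590.5). In bulk samples, fewer cells of a type and less RNA per cell cannot be told apart, here and in every result below. How far the difference in neuron content contributes to the other differences was not tested.

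Across the genome, 7556 of 16349 genes tested differed at an adjusted p under 0.05 (46.2%), of which 3974 were higher in tumours (24.3% of those tested) and 3582 lower (21.9%). Against a threshold of 2-fold, 1451 genes were higher (8.88%) and 1348 lower (8.25%). Every tumour lay above every WT animal for 1099 genes (6.72%) and below for 1465 (8.96%). The median log2 change of all genes was 0.06 with quartiles of -0.55 and 0.79. RLE size factors moved that median to 0.22 and the share of higher calls from 52.6 to 62.1%. Of 591 tested members of 38 gene lists, 312 were higher, 127 lower and 152 not called. A fit of the 13 animals alone also called 373 of these 439. Among the genes named below it did not call Sesn1, Sesn2, Zmat3, Ei24, Spry4, Etv1, Map2k2, Sox11, Gjb6, Ntsr2, Acta2, Col1a1, Col1a2 or Rpl5. Nor did it call those where this is given beside the value. Ccl2, Rasal1 and Cd4 were not tested there. Each list below is described by its counts beside those shares, and none is thereby shown to stand apart.

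**Figure D2:**
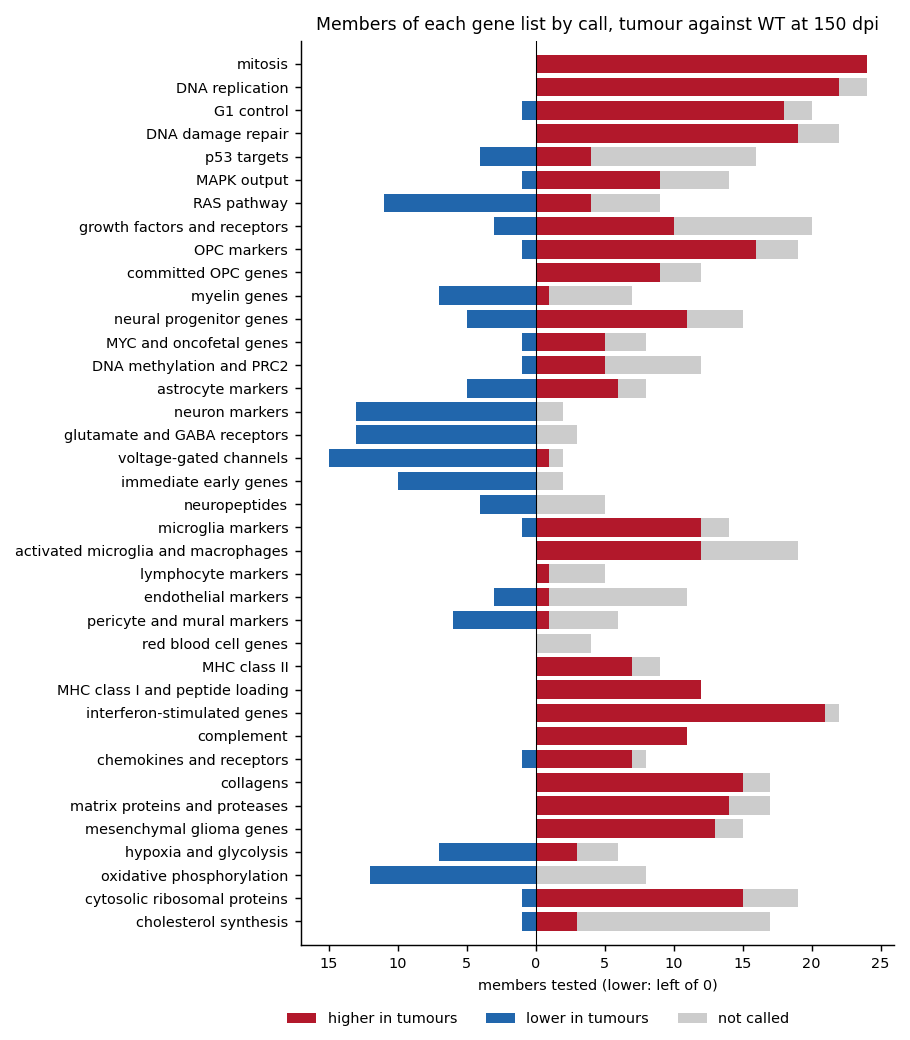
Number of tested members of each of the 38 gene lists that were higher in tumours (right, red), lower (left, blue) or not called (right, grey). All 24 mitosis genes were higher, and 15 of 17 voltage-gated channel genes and 13 of 15 neuron markers were lower.

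Both deleted genes were still counted in tumours. Nf1 (chromosome 11, 79339693 to 79581612, GRCm38) ranged from 149.5 to 273 CPM in tumours (median 217) and from 252 to 355 in WT (median 290). The groups overlapped between 252 and 273 CPM. Mean Nf1 fell from 301 ± 42.4 CPM (WT, SD, n = 6) to 214 ± 41.1 CPM (tumours, SD, n = 7), with a log2 change -0.47, SE 0.13, adjusted p 0.0035. Trp53 (chromosome 11, 69580359 to 69591873) ranged from 18.5 to 77.8 CPM in tumours (median 41.6) and from 11.3 to 33.7 in WT (median 27.1), and was higher in tumours on average (log2 change 0.74, SE 0.24, adjusted p 0.0097). Two-sided exact permutation tests over the 1716 assignments of 7 and 6 animals gave log2 differences of -0.51 for Nf1 (p 0.0035) and 0.74 for Trp53 (p 0.0455). The permutation call for Trp53 was lost when any of 10 of the 13 animals was left out (p up to 0.106). Neither edgeR call held in a fit of the 13 animals alone (adjusted p 0.0922 and 0.0572), and gene-level counts do not separate deleted from kept exons.

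Mitosis genes rose together. All 24 were higher in tumours, all 24 past 2-fold, and 22 without overlap between the groups, with a median log2 change of 5.10. Summed, they stood at 764 to 3656 CPM in tumours (median 1679) and 32.4 to 81.1 in WT (median 53.4). Ccnb1 ranged from 17.0 to 119 CPM in tumours (median 51.6) and from 0 to 0.580 in WT (median 0.129). Cyclin B1, which drives entry into mitosis with Cdk1, was thus at or near 0 in every WT animal (log2 change 8.46, SE 0.78, adjusted p 2.9e-11; its reads may be shared with 3 near-identical copies). Ube2c ranged from 12.5 to 109 CPM in tumours (median 57.1) and from 0 to 1.51 in WT (median 0), and no WT animal but 1 had a count. Ube2c is the ubiquitin-conjugating enzyme of the anaphase-promoting complex (log2 change 7.18, SE 0.75, adjusted p 5.5e-10; 12.56 without WT_21593, the animal with the count). Here and for Cxcl10, Cnpy1 and Pou4f1 below, the value without that animal is fitted against WT animals all at 0 and is no bound. Top2a ranged from 129 to 679 CPM in tumours (median 278) and from 0.477 to 7.28 in WT (median 4.20). The groups lay far apart for this DNA topoisomerase, a standard marker of S to M phase (log2 change 6.53, SE 0.56, adjusted p 4.2e-12). Mki67 ranged from 174 to 756 CPM in tumours (median 365) and from 0.408 to 12.6 in WT (median 4.38). For Mki67, the Ki-67 proliferation antigen, the lowest tumour exceeded the highest WT animal (log2 change 6.60, SE 0.66, adjusted p 2.4e-10; 7.35 without WT_21593). Its reads may be shared with 1 near-identical copy. Foxm1 ranged from 25.2 to 134 CPM in tumours (median 71.4) and from 1.13 to 4.73 in WT (median 2.48). FOXM1, a transcription factor that switches on G2 and M phase genes, was higher in every tumour (log2 change 4.62, SE 0.33, adjusted p 3.0e-14).

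Many mitotic genes are controlled through a cell cycle homology region (CHR) bound by the DREAM complex and, together with CCAAT boxes bound by NF-Y, act as a group. Where a gene had several promoter windows, the first was used. The promoters of 3 mitosis genes with large changes and a CHR match are shown because these genes moved together. They span 250 bases before to 50 after the RefSeq transcription start (RefSeq, GRCm38.p6), 5′ to 3′ on the gene's strand, with the letters of the CHR (TTTGAA or its reverse complement) in capitals. Ube2c lies at chr2:164769679-164769978 (plus strand), Kif2c at chr4:117178723-117179022 (minus) and Mki67 at chr7:135716330-135716629 (minus).
Ube2c: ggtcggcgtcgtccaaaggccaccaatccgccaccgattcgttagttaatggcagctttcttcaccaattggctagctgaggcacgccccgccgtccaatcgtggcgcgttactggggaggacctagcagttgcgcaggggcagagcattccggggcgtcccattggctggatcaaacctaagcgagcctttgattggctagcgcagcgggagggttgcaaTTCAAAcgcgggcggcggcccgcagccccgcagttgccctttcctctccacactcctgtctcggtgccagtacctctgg
Kif2c: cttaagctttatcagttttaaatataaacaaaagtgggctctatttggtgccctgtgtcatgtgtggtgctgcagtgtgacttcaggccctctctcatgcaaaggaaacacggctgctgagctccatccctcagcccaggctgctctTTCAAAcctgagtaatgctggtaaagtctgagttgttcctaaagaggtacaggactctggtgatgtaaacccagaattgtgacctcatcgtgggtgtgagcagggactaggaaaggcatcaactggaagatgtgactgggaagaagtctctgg
Mki67: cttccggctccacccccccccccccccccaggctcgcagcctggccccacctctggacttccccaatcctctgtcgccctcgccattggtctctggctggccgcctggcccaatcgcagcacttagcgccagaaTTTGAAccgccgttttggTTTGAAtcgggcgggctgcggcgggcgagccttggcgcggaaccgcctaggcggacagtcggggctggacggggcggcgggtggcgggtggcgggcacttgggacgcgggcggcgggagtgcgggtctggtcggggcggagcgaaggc
The window of Mki67 holds 2 matches and the others 1. Of the 20 mitosis genes with a window in the table, 14 (70.0%) held TTTGAA on either strand, against 18.1% of all 27025 windows and 12.4% of the 11733 windows of tested genes. CCAAT was found in 16 of the 20 (80.0%), against 37.9% of all windows and 38.2% of those of tested genes. The E2F letters TTTCCCGC or TTTGGCGC were in none of the 20, but in 7 of 19 DNA replication genes (36.8%) and 6 of 16 G1 genes (37.5%), against 1.63% and 2.80%. The CRE letters TGACGTCA were in 1 of the 20 mitosis windows, against 1.88% of all. None of these motifs contains another, and a match is a description of the letters only.

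DNA replication genes were higher for 22 of 24 members, 18 of them past 2-fold, with a median log2 change of 2.10. Rrm2 ranged from 1.72 to 770.1 CPM in tumours (median 37.1) and from 0.885 to 3.40 in WT (median 1.60). The groups overlapped through Tumor_21256, the lowest, and the rise of this ribonucleotide reductase subunit was 6.47 (SE 0.91, adjusted p 3.0e-07), or 4.58 without Tumor_16839, whose level was the highest. Reads of Rrm2 may be shared with 2 near-identical copies. Mcm10 ranged from 2.58 to 34.4 CPM in tumours (median 11.2) and from 0 to 0.945 in WT (median 0), no overlap, for this replication initiation factor (log2 change 5.45, SE 0.92, adjusted p 7.5e-06; 6.95 without WT_21593). Mcm2 ranged from 6.45 to 126 CPM in tumours (median 31.5) and from 0.567 to 7.66 in WT (median 2.11), with 1 tumour inside the WT range, for this subunit of the replicative helicase (log2 change 3.69, SE 0.53, adjusted p 4.9e-07; 4.30 without WT_21593). Orc6 and Fen1 were the members not called, at log2 0.34 and 0.31. In DNA damage repair 19 of 22 were higher and none lower. Clspn ranged from 16.3 to 41.5 CPM in tumours (median 21.3) and from 0.290 to 2.27 in WT (median 0.844). Claspin, which holds the replication fork checkpoint together, did not overlap between the groups (log2 change 4.83, SE 0.49, adjusted p 2.9e-10). Brca1 ranged from 14.2 to 70.9 CPM in tumours (median 27.6) and from 0.567 to 6.80 in WT (median 3.91), again apart, for this protein of homologous recombination. Exo1, an exonuclease of mismatch repair, ran 4.30 to 48.4 CPM in tumours (median 20.6) against 0.510 to 4.01 in WT (median 1.08) (log2 change 3.87, SE 0.52, adjusted p 1.1e-07). Fancb, Atr and Polq were not called.

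Among regulators of G1, the phase in which a cell commits to divide, 18 of 21 were higher and 1 lower. Ccnd1 ranged from 335 to 2418 CPM in tumours (median 619) and from 29.5 to 52.6 in WT (median 42.5). Every tumour had more than 6 times the level of the highest WT animal for cyclin D1, the partner of CDK4 and CDK6 (log2 change 4.61, SE 0.42, adjusted p 2.4e-11), and Tumor_21349 and Tumor_21354 were the highest at 2418 and 2002 CPM. Cdkn2a ranged from 3.01 to 18.8 CPM in tumours (median 6.32) and from 0 to 0.0945 in WT (median 0). The Cdkn2a locus encodes the CDK inhibitor p16 and ARF, the activator of p53, and it was detected in every tumour (log2 change 7.26, SE 1.13, adjusted p 3.0e-06). Cdkn2c ranged from 21.4 to 42.4 CPM in tumours (median 27.6) and from 1.13 to 3.01 in WT (median 2.29), without overlap, for the related inhibitor p18 (log2 change 3.69, SE 0.39, adjusted p 6.2e-10). Rb1 ranged from 92.7 to 179 CPM in tumours (median 114) and from 142 to 319.5 in WT (median 204). The retinoblastoma protein, which CDK4 inactivates, was the member that fell (log2 change -0.74, SE 0.15, adjusted p 1.2e-04). Ccne2 and E2f1 were not called (log2 0.30 and 0.25).

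Of 20 p53 targets 4 were higher (20%), 4 lower (20%) and 12 not called, with a median log2 change of 0.12. Of all genes tested 24.3% were higher and 21.9% lower, so these counts do not set the list apart. Cdkn1a ranged from 12.5 to 104 CPM in tumours (median 29.3) and from 96.7 to 127 in WT (median 106). This CDK inhibitor p21, a classical p53 target, was lower in 6 of 7 tumours than in any WT animal (log2 change -1.28, SE 0.31, adjusted p 8.2e-04). Bbc3, the death gene PUMA, ran 0.879 to 3.23 CPM in tumours (median 1.73) against 1.70 to 7.02 in WT (median 5.80) (log2 change -1.41, SE 0.33, adjusted p 5.4e-04). Sesn1 and Ei24 also fell, by 0.39 and 0.56 on the log2 scale. Gadd45a, a stress-induced growth arrest gene, ran 6.96 to 36.2 CPM in tumours (median 10.3) against 0.567 to 13.1 in WT (median 4.20) and rose (log2 change 1.59, SE 0.41, adjusted p 0.0017), as did the nuclease Aen (log2 change 1.10, SE 0.24, adjusted p 3.0e-04), Sesn2 and Zmat3. Mdm2, the ubiquitin ligase of p53 and its target, was at medians of 91.5 and 91.5 CPM (log2 -0.04). In the 13 animals alone 2 members were higher and 2 lower, in males alone none was called, and 2 were higher without Tumor_16844, WT_21591 or WT_22062.

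Of 15 genes that MAPK signalling induces, 9 were higher and 1 lower, with a median log2 change of 1.06. Etv5 ranged from 135 to 1150 CPM in tumours (median 246) and from 52.2 to 86.5 in WT (median 66.7). The ETS factor Etv5 was above WT in every tumour (log2 change 2.52, SE 0.33, adjusted p 8.8e-08; 1 near-identical copy). Spry1 ranged from 37.7 to 228 CPM in tumours (median 66.6) and from 11.2 to 26.6 in WT (median 18.4). The feedback inhibitor Spry1 likewise separated the groups (log2 change 2.26, SE 0.30, adjusted p 1.1e-07). Dusp5 ranged from 0.539 to 2.37 CPM in tumours (median 1.87) and from 10.7 to 34.5 in WT (median 20.2). This nuclear ERK phosphatase was the member that fell, with all tumours below all WT animals (log2 change -3.57, SE 0.23, adjusted p 4.3e-15). Etv4, another ETS factor, ran 12.2 to 67.6 CPM in tumours (median 18.1) against 1.67 to 7.08 in WT (median 5.90) (log2 change 2.28, SE 0.38, adjusted p 5.3e-06). Dusp6, Spry2, Spry4, Spred3, Etv1 and Il17rd were higher too. Etv1 was at 3098 CPM in Tumor_16839 and 138 to 1149 in the other tumours (median 324), against 225 to 606 in WT. Dusp4, Spred1, Spred2, Phlda1 and Fosl1 were not called.

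Of 20 components of the RAS pathway itself 4 were higher and 11 lower, with a median log2 change of -0.61 (-0.46 with RLE size factors). Rasa2, a RAS GTPase-activating protein, ran 48.4 to 93.9 CPM in tumours (median 64.6) against 225 to 393 in WT (median 266) (log2 -2.01), and Rasal1, Rasa1 and Rasal2 fell as well (log2 -3.14, -1.58 and -0.78; -3.76 for Rasal1 without Tumor_16844). Map2k1 ranged from 42.2 to 125 CPM in tumours (median 50.4) and from 488 to 1615 in WT (median 935). The kinase MEK1 was apart in all animals (log2 change -3.82, SE 0.31, adjusted p 9.1e-13). Nras ranged from 213 to 379 CPM in tumours (median 339.9) and from 96.0 to 133 in WT (median 115). NRAS rose without overlap (log2 change 1.46, SE 0.13, adjusted p 8.8e-12), whereas Hras fell (log2 -0.67), a call lost in the 13 animals alone (adjusted p 0.125) and without WT_22064 (0.0884). Rras, Sos2 and Map2k2 rose too. Rasal1 is known as a neuronal gene, and the neuron markers fell in the same animals, but a link between these was not tested.

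Growth factors and receptors were higher for 10 of 23 tested and lower for 3. Erbb3 ranged from 72.2 to 384 CPM in tumours (median 125) and from 18.7 to 55.5 in WT (median 29.0). This receptor of neuregulins was above the WT range in every tumour (log2 change 2.43, SE 0.32, adjusted p 6.0e-08). Egfr ranged from 15.5 to 306 CPM in tumours (median 43.0) and from 10.8 to 30.8 in WT (median 17.4). Egfr, the EGF receptor, rose with 2 tumours inside the WT range (log2 change 2.42, SE 0.48, adjusted p 6.9e-05), led by Tumor_21354 and Tumor_16839 at 306 and 169 CPM. Tgfa ranged from 78.0 to 204 CPM in tumours (median 158) and from 31.3 to 64.1 in WT (median 45.1), apart, for Tgfa, a ligand of that receptor (log2 change 1.65, SE 0.22, adjusted p 9.6e-08). Met, the receptor of hepatocyte growth factor, was at 2492 CPM in Tumor_21349, 208 in Tumor_16840 and 1.29 to 22.7 in the others, against 1.13 to 4.68 in WT. Its log2 change of 6.79 (SE 1.47, adjusted p 2.4e-04) was 3.81 without Tumor_21349, and adjusted p was 0.0539 in the 13 animals alone. Fgfr2 ranged from 16.1 to 84.9 CPM in tumours (median 36.7) and from 102 to 161 in WT (median 131). This FGF receptor fell and lay below WT in every tumour (log2 change -1.50, SE 0.21, adjusted p 3.3e-07). Pdgfb, a ligand of PDGF receptors (log2 -0.999; adjusted p 0.0591 without WT_21593), and the neurotrophin receptor Ntrk2 (log2 -0.55) fell with overlapping groups, and neither was called in the 13 animals alone (0.0696 and 0.169). Pdgfa, Igf1r, Insr and Erbb4 were not called.

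Of the 20 OPC markers, 16 were higher in tumours and 1 lower, with a median log2 change of 1.47. Pdgfra ranged from 556 to 2630 CPM in tumours (median 1074) and from 246 to 712 in WT (median 391). The PDGF receptor alpha, the defining receptor of OPCs, rose, with 2 tumours inside the WT range (log2 change 1.54, SE 0.25, adjusted p 3.2e-06), and Tumor_21256 had the highest level. Sox10 ranged from 81.2 to 233 CPM in tumours (median 157) and from 27.9 to 71.2 in WT (median 32.5), apart, for this transcription factor of the whole lineage (log2 change 1.91, SE 0.32, adjusted p 5.4e-06). Sox6 ranged from 462 to 916 CPM in tumours (median 628) and from 55.8 to 138 in WT (median 102). Sox6, which keeps OPCs undifferentiated, showed the largest rise of the list (log2 change 2.77, SE 0.21, adjusted p 1.2e-13). Traf4, a signalling adaptor, ran 73.1 to 182 CPM in tumours (median 111) against 13.5 to 23.8 in WT (median 16.0) (log2 change 2.60, SE 0.23, adjusted p 6.3e-12). Ptprz1, a receptor phosphatase, ran 1920 to 4088 CPM in tumours (median 2383) against 819 to 1770 in WT (median 1156) (log2 change 1.18, SE 0.18, adjusted p 1.0e-06). Cspg5 fell (log2 -0.71), a call lost with DESeq2 (adjusted p 0.0514), in the 13 animals alone (0.164) and without Tumor_16839 (0.0576), Tumor_21354 (0.0665) or WT_22064 (0.0816). Neu4, Megf11 and Tmem100 were not called.

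Genes of committed precursors, the step after OPCs, were higher for 9 of 12. Bcas1 ranged from 231 to 854 CPM in tumours (median 578) and from 75.5 to 95.9 in WT (median 82.3). This marker of newly formed oligodendrocytes was above WT in every tumour (log2 change 2.84, SE 0.23, adjusted p 6.8e-13). Kif19a, a kinesin, ran 1.84 to 25.4 CPM in tumours (median 11.7) against 0.334 to 2.36 in WT (median 0.719) (log2 change 3.45, SE 0.61, adjusted p 1.6e-05; 4.11 without WT_21593). Nkx2-2, a transcription factor of differentiation, ran 23.2 to 58.4 CPM in tumours (median 38.5) against 9.94 to 15.1 in WT (median 14.0) (log2 change 1.55, SE 0.25, adjusted p 2.7e-06). Gpr17, Enpp6 and Fyn were not called, and Enpp6 had a median of 7.21 CPM in tumours and 29.2 in WT (log2 -0.40; -1.26, adjusted p 0.0116, without Tumor_21354). Myelin genes, the end of the lineage, were lower for 7 of 14 and higher for 1, with a median log2 change of -1.18. Mobp ranged from 2.42 to 147 CPM in tumours (median 8.42) and from 164 to 310.4 in WT (median 196). Mobp, a structural protein of myelin, fell (log2 change -3.26, SE 0.56, adjusted p 9.6e-06), and by 4.85 on the log2 scale without Tumor_16713, which held the hormone library. Ermn ranged from 2.01 to 25.5 CPM in tumours (median 3.05) and from 39.9 to 199.9 in WT (median 72.5). The cytoskeletal protein ermin fell likewise (log2 change -3.79, SE 0.47, adjusted p 2.1e-08; -4.64 without Tumor_16713). Mal, Mog, Opalin and Aspa also fell. Cnp rose (log2 0.71), though not in the 13 animals alone (adjusted p 0.0851). Mbp, Mag, Myrf, Ugt8a and Cldn11 were not called.

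Neural progenitor genes were mixed, with 11 of 20 higher and 5 lower. Dll3 ranged from 5.24 to 64.1 CPM in tumours (median 30.1) and from 0.668 to 2.90 in WT (median 1.87). The Notch ligand Dll3 separated the groups (log2 change 4.12, SE 0.55, adjusted p 1.1e-07), and the receptor Notch1 ran 134 to 266 CPM in tumours (median 238) against 35.8 to 79.4 in WT (median 49.6) (log2 change 2.00, SE 0.21, adjusted p 8.4e-10). Dlx1 ranged from 0.110 to 67.3 CPM in tumours (median 12.1) and from 262 to 512 in WT (median 333). Dlx1, a transcription factor of forebrain interneuron lineages, was lower in every tumour (log2 change -3.98, SE 0.44, adjusted p 1.9e-09), and so was Dlx2 (log2 -3.76). Dcx, a microtubule protein of migrating neuroblasts, ran 6.92 to 1006 CPM in tumours (median 156) against 842 to 2492 in WT (median 1090) (log2 change -2.53, SE 0.50, adjusted p 7.3e-05; -3.54 without Tumor_16839). Sox11, a factor of immature neurons and progenitors, was at 3300 CPM in Tumor_16839 and 61.3 to 629.5 in the others, against 143 to 337 in WT. Its call (log2 1.76) rested on that tumour, without which it was 0.32 (adjusted p 0.463).

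Among MYC family and oncofetal genes 5 of 9 tested were higher and 1 lower. Myc ranged from 68.1 to 213 CPM in tumours (median 129) and from 3.47 to 5.61 in WT (median 4.50). Every tumour exceeded every WT animal by more than 10-fold for this growth-driving transcription factor (log2 change 4.85, SE 0.31, adjusted p 2.3e-15). Hmga1 ranged from 11.5 to 78.6 CPM in tumours (median 21.3) and from 0 to 2.00 in WT (median 0.935), apart, for this chromatin protein (log2 change 4.83, SE 0.86, adjusted p 1.6e-05; 1 near-identical copy). Mycn was not called (log2 0.80), with 1141 CPM in Tumor_16839 and 5.92 to 111 in the others, against 31.9 to 239 in WT, and without that tumour it was lower (-1.27, adjusted p 0.0212). Igf2bp3, an RNA-binding protein, fell (log2 change -1.28, SE 0.23, adjusted p 2.3e-05). Of 13 genes of DNA methylation and the Polycomb complex PRC2, 5 were higher and 1 lower. Uhrf1 ranged from 7.96 to 101 CPM in tumours (median 35.2) and from 0 to 3.97 in WT (median 2.54). Uhrf1, which guides DNA methylation after replication, did not overlap (log2 change 4.07, SE 0.51, adjusted p 3.6e-08; 1 near-identical copy). Hells, a chromatin remodeller, ran 14.2 to 80.8 CPM in tumours (median 15.5) against 3.34 to 14.7 in WT (median 7.92) (log2 change 1.90, SE 0.37, adjusted p 5.9e-05). The PRC2 enzyme Ezh2 ran 47.1 to 146 CPM in tumours (median 75.0) against 24.7 to 36.2 in WT (median 30.2) (log2 change 1.47, SE 0.21, adjusted p 5.1e-07). The DNA methyltransferase Dnmt3a was lower (log2 change -0.67, SE 0.16, adjusted p 8.9e-04), and Dnmt1, Suz12, Tet1, Tet2 and Tet3 were not called.

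Most neuronal genes fell. Lower were 13 of 15 neuron markers (median log2 -3.16), 13 of 16 glutamate and GABA receptors (-1.73), 15 of 17 voltage-gated channels (-2.36), 10 of 12 immediate early genes (-2.12) and 4 of 9 neuropeptides (-2.01), and 1 gene of these lists was higher. Rbfox3 ranged from 0.994 to 9.03 CPM in tumours (median 3.90) and from 181 to 249.6 in WT (median 202). The neuronal nuclear antigen NeuN showed the largest fall among markers (log2 change -5.46, SE 0.28, adjusted p 4.4e-18). Snap25 ranged from 106 to 559 CPM in tumours (median 180.4) and from 3690 to 5808 in WT (median 4557). Snap25, part of the synaptic vesicle fusion machinery, was lower in every tumour (log2 change -4.22, SE 0.25, adjusted p 3.1e-16). Camk2a, a kinase of excitatory synapses, ran 7.66 to 60.7 CPM in tumours (median 17.2) against 836 to 1246 in WT (median 994) (log2 change -5.29, SE 0.33, adjusted p 1.3e-15). Gad1 ranged from 3.19 to 248 CPM in tumours (median 78.2) and from 1006 to 1994 in WT (median 1423). The GABA-synthesising enzyme fell with it (log2 change -3.88, SE 0.40, adjusted p 5.0e-10), and the glutamate transporters Slc17a7 and Slc17a6 were not called.

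Among receptors, Grin2b, an NMDA receptor subunit, ran 36.6 to 129.9 CPM in tumours (median 66.7) against 1402 to 2243 in WT (median 1989) (log2 change -4.68, SE 0.17, adjusted p 9.1e-22) and Gabra5, a GABA-A subunit, 1.10 to 17.2 CPM in tumours (median 7.49) against 171 to 287 in WT (median 239) (log2 change -4.97, SE 0.30, adjusted p 5.0e-16). Both were apart in all animals. The AMPA subunit Gria2, which OPCs also express, ran 359.8 to 1430 CPM in tumours (median 665) against 1604 to 4610 in WT (median 2266) (log2 change -1.81, SE 0.23, adjusted p 3.0e-08), and Gria4 and Gabrb2 were not called. Cacna1e ranged from 33.8 to 83.5 CPM in tumours (median 61.7) and from 533 to 809.9 in WT (median 701). This calcium channel fell (log2 change -3.56, SE 0.18, adjusted p 2.0e-18), while the potassium channel Kcna2 was the gene that rose (log2 change 0.88, SE 0.22, adjusted p 0.0012). Egr1 ranged from 62.1 to 213 CPM in tumours (median 139) and from 606 to 1858 in WT (median 1239). Egr1, an activity-induced transcription factor, was below WT in every tumour (log2 change -3.08, SE 0.35, adjusted p 4.5e-09), as were Npas4 (log2 -5.78) and Arc (log2 -4.58). Penk ranged from 0.936 to 9.12 CPM in tumours (median 2.69) and from 275 to 488 in WT (median 402). Penk encodes the enkephalin precursor and was the neuropeptide with the largest fall (log2 change -6.47, SE 0.35, adjusted p 2.2e-17). Cartpt, another neuropeptide precursor, ran 0 to 3.23 CPM in tumours (median 0.495) against 9.29 to 32.9 in WT (median 16.5) (log2 change -4.12, SE 0.45, adjusted p 1.7e-09).

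Astrocyte markers split, with 6 of 13 higher and 5 lower, and their sum overlapped at 1462 to 4191 CPM in tumours (median 2949) and 3473 to 4767 in WT (median 3616). Gfap ranged from 80.4 to 339 CPM in tumours (median 168) and from 19.7 to 51.4 in WT (median 30.4). The intermediate filament Gfap rose in every tumour (log2 change 2.52, SE 0.29, adjusted p 3.7e-09). Agt ranged from 5.76 to 66.8 CPM in tumours (median 13.3) and from 0 to 1.61 in WT (median 0.332), apart, for angiotensinogen (log2 change 5.22, SE 0.78, adjusted p 8.0e-07; 6.12 without WT_21593). Gja1 ranged from 4.31 to 179.8 CPM in tumours (median 29.6) and from 81.9 to 455 in WT (median 169). The gap junction gene Gja1 fell (log2 change -1.89, SE 0.48, adjusted p 0.0014), and so did Slc1a2, Slc4a4, Gjb6 and Ntsr2, though Gjb6 (adjusted p 0.0562) and Ntsr2 (0.184) not in the 13 animals alone. Among 14 endothelial markers 1 was higher and 3 lower (6 lower without Tumor_21354). The 3 lower markers are 21.4% of the list, beside 21.9% of all genes tested. Slco1a4, a transporter of the blood-brain barrier, ran 4.94 to 46.9 CPM in tumours (median 23.5) against 38.5 to 76.0 in WT (median 61.5) (log2 change -1.12, SE 0.31, adjusted p 0.0035). Vwf, von Willebrand factor, was the marker that rose (log2 0.91), and that call was lost in the 13 animals alone and without any of Tumor_16713 and Tumor_16844 or WT_21590, WT_21591 and WT_22064 (adjusted p 0.0606 to 0.105). Pecam1, Cldn5, Cdh5 and Kdr were not called. Of 12 pericyte and mural markers 6 fell and 1 rose. Rgs5, a marker of pericytes, ran 72.8 to 140.2 CPM in tumours (median 113) against 251 to 514 in WT (median 340.2) (log2 change -1.71, SE 0.20, adjusted p 7.9e-09). Atp13a5 and Kcnj8, markers of the same cells, fell by log2 -2.53 and -2.08. Acta2, smooth muscle actin, rose (log2 2.68, adjusted p 0.026), but was at 1.45 (adjusted p 0.180) without Tumor_16713, and the call was also lost without WT_21590 (0.0511) or WT_22062 (0.0501). Haemoglobin genes and Alas2 were not called.

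Most markers of immune cells rose. Of 15 microglia markers 12 were higher and 1 lower, with a median log2 change of 1.66, and their sum overlapped at 380.3 to 1014 CPM in tumours (median 499.9) and 315 to 402 in WT (median 346). Tmem119 ranged from 8.75 to 48.3 CPM in tumours (median 24.4) and from 2.83 to 9.17 in WT (median 3.61). This microglial membrane protein rose, with 1 tumour inside the WT range (log2 change 2.40, SE 0.35, adjusted p 4.9e-07). Aif1, the marker IBA1, ran 3.01 to 58.6 CPM in tumours (median 13.5) against 1.00 to 8.85 in WT (median 1.86) (log2 change 2.56, SE 0.54, adjusted p 1.8e-04; 3.54 without WT_22064). Cx3cr1, the fractalkine receptor, ran 24.2 to 95.0 CPM in tumours (median 50.8) against 9.07 to 23.1 in WT (median 12.2) (log2 change 1.99, SE 0.27, adjusted p 1.6e-07). P2ry12, a purine receptor of resting microglia, was not called (log2 0.34) except without Tumor_21349 (adjusted p 0.0376), nor was Gpr34. Sall1 fell (log2 change -0.99, SE 0.20, adjusted p 8.9e-05). Of 19 markers of activated microglia and macrophages 12 rose and none fell, and every tumour exceeded every WT animal in their sum, at 163 to 1505 CPM in tumours (median 705) and 87.5 to 158 in WT (median 120.1). Itgax ranged from 3.73 to 30.8 CPM in tumours (median 19.4) and from 0 to 0.545 in WT (median 0). This integrin CD11c, at 0 in most WT animals, was detected in every tumour (log2 change 5.89, SE 0.90, adjusted p 1.2e-06; 6.95 without WT_22064). Lgals3, galectin-3, was at 0 in all WT animals and 8.46 ± 6.55 CPM in tumours (SD, n = 7), at least 105.5-fold higher, taking 3 counts in all WT animals together as the limit. Gpnmb, a glycoprotein of phagocytes, was at 952 CPM in Tumor_16844, 709 in Tumor_16713 and 7.31 to 124 in the others, against 0.580 to 17.0 in WT (log2 5.04; 3.95 without Tumor_16844).

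Few lymphocyte genes could be tested. Of 15 markers, 5 passed the filter on low counts and 1 was called, Cd4 (log2 2.65, adjusted p 0.022; 0.0504 without WT_22064), which microglia and macrophages can also express. Their sum was 3.23 to 37.7 CPM in tumours (median 9.55) and 1.13 to 6.09 in WT (median 4.51), and the T cell gene Cd3e ran 0 to 8.64 CPM in tumours (median 0.269) against 0 to 0.290 in WT (median 0). Its highest value was in Tumor_21354. Differences among lymphocyte genes were mostly not detectable at this depth.

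All 12 genes of MHC class I and peptide loading, all 11 complement genes, 21 of 22 interferon-stimulated genes, 7 of 9 MHC class II genes and 7 of 9 tested chemokines and receptors were higher. Interferons bind receptors that switch on antiviral genes, MHC class I presents peptides to CD8 T cells, and class II, usual in antigen-presenting cells, to CD4 T cells. B2m ranged from 260.5 to 1807 CPM in tumours (median 727) and from 44.2 to 128 in WT (median 94.2). The light chain of MHC class I lay above WT in every tumour (log2 change 3.10, SE 0.34, adjusted p 2.2e-09). Nlrc5 ranged from 5.12 to 94.0 CPM in tumours (median 21.6) and from 0 to 1.34 in WT (median 0.726). NLRC5, the transactivator of class I genes, did so too (log2 change 5.59, SE 0.68, adjusted p 1.8e-08; 4.92 without Tumor_21354). Psmb9, a subunit of the immunoproteasome, ran 3.40 to 94.8 CPM in tumours (median 23.5) against 0.567 to 2.29 in WT (median 0.766) (log2 change 4.68, SE 0.63, adjusted p 1.1e-07; 3.94 without Tumor_21354). H2-Ab1 ranged from 0.269 to 156 CPM in tumours (median 12.3) and from 0 to 0.283 in WT (median 0.0681). This class II beta chain rose, with 1 tumour (Tumor_16839) inside the WT range (log2 change 7.51, SE 1.21, adjusted p 3.3e-06; 6.08 without Tumor_21354), and the class II sum ran from 10.9 CPM in Tumor_16839 to 933 in Tumor_21354. Cd74, the invariant chain, was 2.83 to 418 CPM in tumours and 0 to 2.74 in WT (log2 6.88; 5.25 without Tumor_21354 and 10.92 without WT_21593).

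Irf7 ranged from 2.80 to 43.9 CPM in tumours (median 10.2) and from 0 to 1.02 in WT (median 0.523). IRF7, an interferon regulatory factor, was apart from WT (log2 change 5.18, SE 0.72, adjusted p 2.3e-07). Oas1a ranged from 1.62 to 28.9 CPM in tumours (median 2.79) and from 0 to 0.204 in WT (median 0). Oas1a, an RNA sensor, rose from near 0 (log2 change 6.14, SE 0.91, adjusted p 8.2e-07; 5.52 without Tumor_21354; its reads may be shared with Oas1g). Ifi27l2a was at 3.62 to 166 CPM in tumours (median 7.81) against 0 to 0.378 in WT (median 0), with counts in 2 WT animals (log2 change 8.15, SE 1.18, adjusted p 4.7e-07; 8.87 without WT_21593). Mx2 was the member not called (log2 1.15, adjusted p 0.051), and it was called with DESeq2 (0.016) and without any of Tumor_16713, Tumor_16839, Tumor_16840, Tumor_21256 and Tumor_21349 or WT_21591 and WT_22064 (0.0125 to 0.0404); its reads may be shared with Mx1. Summed, interferon-stimulated genes ran from 200.1 CPM in Tumor_16713 and 296 in Tumor_21256 to 2342 in Tumor_21354 and 2405 in Tumor_16844, against 86.2 to 157 in WT. Every tumour was thus above every WT animal, over a range of more than 10-fold among tumours.

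Many interferon-stimulated genes carry the interferon-stimulated response element (ISRE). The windows of 3 members with large changes and a match are shown because they rose together. The ISRE letters (GAAA, NN and GAAA in a row, or the reverse complement) are in capitals. The span and strand are as above (RefSeq, GRCm38.p6). Oas1a lies at chr5:120907476-120907775 (minus strand), Bst2 at chr8:71537423-71537722 (minus) and Ifit1 at chr19:34640639-34640938 (plus).
Oas1a: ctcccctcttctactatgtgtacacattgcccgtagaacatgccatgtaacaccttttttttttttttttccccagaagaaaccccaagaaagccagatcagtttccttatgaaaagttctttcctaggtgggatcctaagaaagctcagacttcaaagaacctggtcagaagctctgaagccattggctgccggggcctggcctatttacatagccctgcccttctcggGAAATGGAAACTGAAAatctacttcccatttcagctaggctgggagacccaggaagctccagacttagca
Bst2: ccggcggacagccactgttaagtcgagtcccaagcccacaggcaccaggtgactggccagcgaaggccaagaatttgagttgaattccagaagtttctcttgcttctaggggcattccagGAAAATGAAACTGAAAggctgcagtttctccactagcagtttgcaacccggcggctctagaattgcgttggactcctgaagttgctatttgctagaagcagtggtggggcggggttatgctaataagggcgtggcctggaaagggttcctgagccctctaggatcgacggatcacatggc
Ifit1: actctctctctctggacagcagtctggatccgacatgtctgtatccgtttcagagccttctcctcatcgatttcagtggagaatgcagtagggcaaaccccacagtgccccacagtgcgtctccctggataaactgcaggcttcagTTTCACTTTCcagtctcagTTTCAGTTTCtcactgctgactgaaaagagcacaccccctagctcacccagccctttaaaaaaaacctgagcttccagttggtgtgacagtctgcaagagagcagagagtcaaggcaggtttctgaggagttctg
Each holds 2 matches, which overlap in Oas1a and Bst2. The letters were in 9 of the 14 interferon-stimulated genes with a window (64.3%) and in 3 of 10 MHC class I genes (30.0%), against 3.49% of all windows and 3.17% of those of tested genes. Bst2 ranged from 4.52 to 39.7 CPM in tumours (median 18.2) and from 0 to 1.09 in WT (median 0.661), apart, for tetherin, which holds virus particles at the cell surface (log2 change 4.94, SE 0.64, adjusted p 5.7e-08). Ifit1 ranged from 4.06 to 108 CPM in tumours (median 35.1) and from 0.681 to 4.34 in WT (median 1.94), overlapping by 1 tumour, for this sensor of foreign RNA caps (log2 change 4.36, SE 0.66, adjusted p 1.1e-06).

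Among complement genes C1qa, C1qb and C1qc, made by microglia, rose together. C1qa ranged from 17.8 to 97.3 CPM in tumours (median 36.9) and from 5.10 to 7.54 in WT (median 6.48) (log2 change 2.95, SE 0.41, adjusted p 2.4e-07), and C1qb and C1qc were at log2 2.94 and 2.91. C4b ranged from 71.4 to 856 CPM in tumours (median 235) and from 18.6 to 41.2 in WT (median 26.1), apart (log2 change 3.90, SE 0.43, adjusted p 1.5e-09). C3, the central component, ran 1.35 to 60.3 CPM in tumours (median 7.22) against 0 to 0.764 in WT (median 0.0473) (log2 change 6.10, SE 1.08, adjusted p 1.5e-05; 5.16 without Tumor_21354 and 6.88 without WT_21590). The chemokine Cxcl10, which interferon induces and which attracts T cells, had the largest rise among called protein-coding genes with no overlap and a mean of at least 10 CPM. It was at 2.58 to 144 CPM in tumours (median 33.5) against 0 to 0.0945 in WT (median 0), with a count in 1 WT animal (log2 change 10.07, SE 1.43, adjusted p 3.4e-07; 9.26 without Tumor_21354 and 11.87 without WT_21593). Ccl2, a chemokine for monocytes, was at 0 in WT and 5.14 ± 8.78 CPM in tumours (SD, n = 7), at least 64.1-fold higher by the same limit, or at least 23.1-fold without Tumor_21354, which was at 24.8 CPM (1.85 ± 1.43 in the other 6, SD). Cxcl12 fell, with 2.30 to 19.2 CPM in tumours (median 15.3) against 32.6 to 93.1 in WT (median 42.0) (log2 change -1.86, SE 0.30, adjusted p 4.2e-06). The MHC and complement genes were raised beside microglial markers in the same animals, and the part of the latter was not tested.

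Collagens were higher for 15 of 17 members and lower for none, with a median log2 change of 3.47 that varied with the method: 11 were called in the 13 animals alone, 9 with limma-voom and 7 in males alone. The sum was 7483 CPM in Tumor_16713, 2610 in Tumor_16844, 1682 in Tumor_16839 and 308 to 719.5 in the others, against 126 to 216 in WT. Col2a1 ranged from 11.7 to 625 CPM in tumours (median 57.3) and from 0 to 2.90 in WT (median 0.175). This collagen, typical of cartilage, was above WT in every tumour (log2 change 8.24, SE 1.00, adjusted p 1.6e-08; 7.21 without Tumor_16839 and 9.93 without WT_21591). Col11a1 ranged from 63.8 to 3232 CPM in tumours (median 176) and from 10.4 to 43.1 in WT (median 15.0). Its fibril partner Col11a1 did the same (log2 change 5.20, SE 0.70, adjusted p 1.3e-07; 4.16 without Tumor_16713). Col9a1 ranged from 4.68 to 282 CPM in tumours (median 23.0) and from 0 to 2.27 in WT (median 0.570), apart, for the third cartilage type (log2 change 7.25, SE 0.97, adjusted p 1.1e-07; 6.38 without Tumor_16713). Col1a1, Col1a2 and Col3a1, the fibrillar collagens of connective tissue, had tumour medians of 3.33, 6.45 and 1.13 CPM and maxima of 151, 83.1 and 94.7, reached in Tumor_16713 and Tumor_21354. Their log2 changes of 2.70, 2.10 and 4.03 were smaller without 1 of these tumours, and the calls of Col1a1 and Col1a2 were lost. Col1a1 was at 1.26 without Tumor_16713 (adjusted p 0.126), Col1a2 at 1.33 without Tumor_21354 (0.150; 0.0907 without Tumor_16713) and Col3a1 at 2.88 without Tumor_21354, or 4.71 without WT_21591. The Col3a1 call was lost with limma-voom (0.296) and in males alone (0.173). Col5a2 and Col6a1 were not called.

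Other matrix proteins and proteases were higher for 14 of 17 and lower for none. Ncan ranged from 864 to 2009 CPM in tumours (median 1185) and from 240 to 403 in WT (median 344). Neurocan, a proteoglycan of brain matrix that OPCs make, lay above WT in every tumour (log2 change 2.03, SE 0.17, adjusted p 1.3e-12). Tnc ranged from 10.3 to 718 CPM in tumours (median 66.3) and from 7.68 to 19.3 in WT (median 9.80). Tenascin C rose with 1 tumour inside the WT range (log2 change 3.78, SE 0.77, adjusted p 1.1e-04), or by 2.57 without Tumor_16713. Fibromodulin (Fmod) was at 1474 CPM in Tumor_16713, with 1471 and 1907 in its libraries without TMM scaling, and 0.671 to 54.2 in the others, against 0.613 to 4.82 in WT. Its log2 change of 6.06 was 3.08 without that tumour and 7.29 without WT_21593, with an adjusted p of 0.158 under limma-voom. Aggrecan (Acan) ran 5.34 to 937 CPM in tumours (median 30.4) against 5.35 to 13.8 in WT (median 9.78) (log2 4.04; 2.17 without Tumor_16713; adjusted p 0.101 under limma-voom). Tnr, Fn1 and Ogn were not called. Of 15 genes that mark mesenchymal glioma, 13 rose and none fell. Vim ranged from 88.6 to 884 CPM in tumours (median 412) and from 24.7 to 38.5 in WT (median 27.1). The filament protein vimentin was apart (log2 change 3.79, SE 0.42, adjusted p 2.5e-09). Cd44 ranged from 29.5 to 215 CPM in tumours (median 42.1) and from 0.283 to 11.3 in WT (median 0.606). Cd44, a hyaluronan receptor, was too (log2 change 5.47, SE 0.96, adjusted p 1.4e-05; 7.09 without WT_21592). S100a4, a calcium-binding protein, ran 6.52 to 60.6 CPM in tumours (median 16.1) against 0 to 3.06 in WT (median 1.69) (log2 change 4.05, SE 0.55, adjusted p 1.6e-07). Reads of S100a4 may be shared with 1 near-identical copy. Chil1 and S100a10 were not called.

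Metabolic lists were mixed. Oxidative phosphorylation was lower for 12 of 20 genes and higher for none, at a median log2 change of -0.48, and 6 were called in the 13 animals alone and 7 with RLE size factors or without WT_22064. Ndufv1, a subunit of complex I, fell (log2 change -1.04, SE 0.21, adjusted p 9.3e-05). Cox5a, a subunit of complex IV, ran 24.1 to 105 CPM in tumours (median 65.1) against 108 to 218 in WT (median 174) (log2 change -1.22, SE 0.22, adjusted p 1.5e-05), apart in all animals. Of 13 tested hypoxia and glycolysis genes 3 were higher and 7 lower. Hk2 ranged from 2.56 to 16.2 CPM in tumours (median 10.0) and from 0.283 to 2.31 in WT (median 0.574). Hexokinase 2, the isoform of many tumours, rose (log2 change 3.13, SE 0.62, adjusted p 7.8e-05), as did Ldha (log2 0.93; 1 near-identical copy) and Pfkfb3 (log2 1.29). Adm, Egln3, Ankrd37 and Ndrg1, induced by low oxygen, fell (log2 -2.32, -1.64, -1.76 and -1.54), and Slc2a1, which also marks brain endothelium, was not called. Cytosolic ribosomal proteins were higher for 15 of 20. Rplp0 and Rps2, with 3 and 28 near-identical copies and so uncertain, rose by log2 1.83 and 2.11; Rpl5 fell (log2 -0.51; 6 near-identical copies), a call lost with DESeq2 (adjusted p 0.117) and without any of Tumor_16713, Tumor_16844, Tumor_21256 and Tumor_21354 or WT_21590, WT_22062 and WT_22064 (0.0547 to 0.167). In cholesterol synthesis 3 of 18 rose and 1 fell. Sqle, squalene epoxidase, rose by log2 0.63. Dhcr7 rose by 2.41, or 1.08 without Tumor_21354 (598 CPM).

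**Figure D3:**
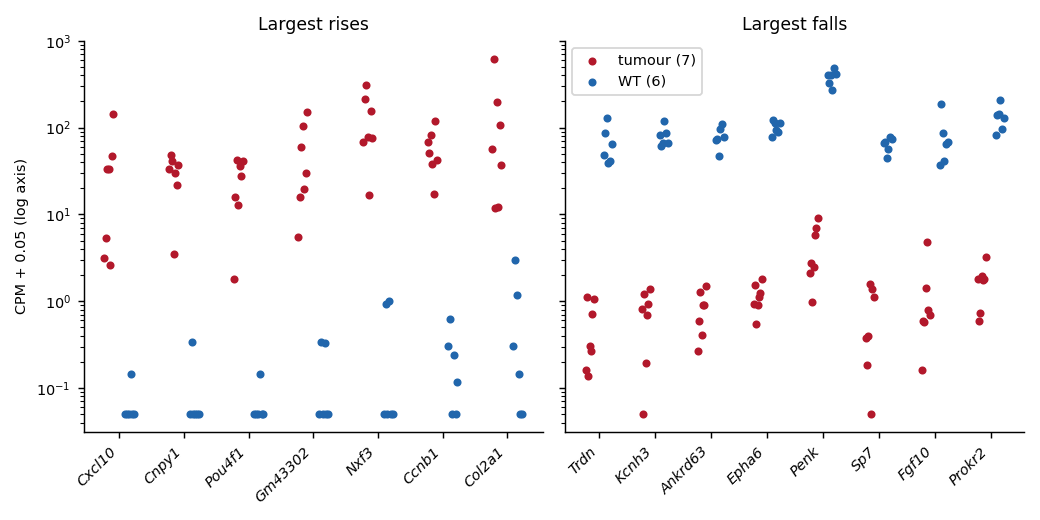
CPM + 0.05 (log axis) in each of the 7 tumours (red) and 6 WT animals (blue) for 7 of the 8 called protein-coding genes with the largest rises and the 8 with the largest falls, among those with no overlap and a mean of at least 10 CPM over the 13 animals. WT animals at 0 sit at 0.05, and Penk lies between 275 and 488 CPM in WT and at 9.12 or below in tumours.

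Among the largest rises by fold was a transcription factor best known from another cell type. Pou4f1, a factor of sensory neurons, was at 1.76 to 42.6 CPM in tumours (median 27.7) against 0 to 0.0945 in WT (median 0), with a count in 1 WT animal (log2 9.69; 11.37 without WT_21593). Tumor_16713 was the lowest of the group for Pou4f1. Cnpy1 ranged from 3.48 to 47.9 CPM in tumours (median 33.7) and from 0 to 0.290 in WT (median 0). Cnpy1, a regulator of FGF signalling, was detected in 1 WT animal (log2 9.88; 11.82 without WT_21591). Nxf3 ranged from 16.6 to 309.6 CPM in tumours (median 77.2) and from 0 to 0.945 in WT (median 0). Nxf3, of the mRNA export factor family, rose by 8.51 (10.01 without WT_21593). Gm43302, at 5.49 to 153 CPM in tumours (median 29.8) against 0 to 0.290 in WT (median 0), lies among the interferon-induced guanylate-binding proteins and may share reads with Gbp10 and Gbp6 (log2 8.86; 10.13 without WT_21593).

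The largest falls by fold included genes with neuronal roles. Kcnh3, a potassium channel, was at 0 to 1.33 CPM in tumours (median 0.769) against 60.6 to 119 in WT (median 74.1) (log2 -6.68), and Epha6, an ephrin receptor with 1 near-identical copy, at 0.497 to 1.75 CPM in tumours (median 1.07) against 77.5 to 123 in WT (median 103) (log2 -6.52). Every tumour was far below every WT animal. Prokr2 ranged from 0.539 to 3.22 CPM in tumours (median 1.73) and from 83.1 to 206 in WT (median 134). Prokr2, the receptor that guides neuroblasts of the olfactory bulb, fell by 6.26 on the log2 scale. Sp7, known as the bone factor osterix, was at 0 to 1.51 CPM in tumours (median 0.351) against 44.8 to 78.5 in WT (median 67.4) (log2 -6.30), and the growth factor Fgf10 at 0.110 to 4.73 CPM in tumours (median 0.649) against 37.2 to 186 in WT (median 66.2) (log2 -6.29). Trdn, a calcium release protein of muscle, had the largest fall, at 0.0877 to 1.08 CPM in tumours (median 0.251) against 39.1 to 129 in WT (median 57.1) (log2 -7.04), and Ankrd63 was at 0.220 to 1.44 CPM in tumours (median 0.848) against 47.0 to 110.2 in WT (median 76.0) (log2 -6.55).

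By difference in CPM the largest rises were Slc38a6, Noct, Ptprz1, Capns1, Ncan and Ccnd1. Slc38a6 ranged from 991 to 3498 CPM in tumours (median 2164) and from 389 to 716 in WT (median 557). This amino acid transporter, with 2 near-identical copies, was apart (log2 change 2.04, SE 0.26, adjusted p 5.5e-08). Noct ranged from 1093 to 3396 CPM in tumours (median 2277) and from 559 to 950 in WT (median 764). Nocturnin was apart as well (log2 change 1.61, SE 0.22, adjusted p 2.6e-07). Capns1, the small calpain subunit, was at 7753 CPM in Tumor_16840 and at most 356 in the other tumours, with a log2 change of 4.05, or 1.87 without that tumour. The largest falls by that measure included Snap25, Ndrg4, Apc, Gria2 and Atp1b1. Ndrg4 ranged from 57.3 to 563 CPM in tumours (median 163) and from 2501 to 4702 in WT (median 4172). Ndrg4, a neuronal cytoplasmic protein, was apart (log2 change -4.03, SE 0.30, adjusted p 1.2e-13). Atp1b1, a sodium pump subunit, fell without overlap (log2 change -2.95, SE 0.24, adjusted p 2.0e-12). Apc ranged from 273 to 795 CPM in tumours (median 401) and from 1739 to 3619 in WT (median 2397). The tumour suppressor Apc, which restrains Wnt signalling and is abundant in neurons and oligodendrocytes, was lower in every tumour (log2 change -2.45, SE 0.18, adjusted p 9.8e-14).

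The genotype effect at 150 dpi was compared with that at 90 dpi, a stage not labelled as tumour, in the same fit. The effect changed for 4904 of 16349 genes (30.0%), upwards for 2314 and downwards for 2590. It changed upwards for all 24 mitosis genes, and for 19 of 24 DNA replication, 16 of 22 repair, 19 of 22 interferon-stimulated, 11 of 12 MHC class I and 12 of 17 collagen genes. At 90 dpi the median log2 difference between CKO and WT was 0.92 for mitosis genes, -0.01 for DNA replication, 0.33 for interferon-stimulated genes, 0.01 for collagens and 0.20 for neuron markers, beside 0.04 for all genes. Mitosis was the cell cycle list with a median above 0.2 at that time. Ccnb1 changed by 8.20 (SE 0.95, adjusted p 1.7e-08), Myc by 5.04 (SE 0.41, adjusted p 3.7e-12) and Col2a1 by 7.48 (SE 1.46, adjusted p 1.2e-04). Downwards, Snap25 changed by -4.34 (SE 0.35, adjusted p 3.3e-12) and Penk by -6.62 (SE 0.47, adjusted p 1.3e-13). These single genes were chosen by their difference at 150 dpi, which is part of the change tested here.

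The median of MAPK output was 0.47 at 90 dpi and 1.06 at 150 dpi. The effect changed upwards for 4 of its 15 genes and downwards for 1. Of all 16349 genes tested 30.0% changed, 2314 upwards and 2590 downwards, so these counts do not set the list apart. For myelin genes the median was 0.64 and -1.18, with 8 of 14 changing downwards. Mobp went from -0.24 to -3.26, a change of -3.02 (SE 0.79, adjusted p 0.0033). The median of pericyte markers was -1.14 at 90 dpi and -0.998 at 150 dpi, and that of endothelial markers, of which 3 of 14 were called lower at 150 dpi, was -0.66 and -0.55. Red blood cell genes, of which 4 were tested, had a median of 5.88 at 90 dpi, and calls at that time are not given here. No member was called at 150 dpi or for the change of effect. Their sum at 150 dpi was low, at 1.62 to 17.0 CPM in tumours and 0.290 to 4.06 in WT. Without WT_21167 at 90 dpi the effect changed for 4868 genes.

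**Figure D4:**
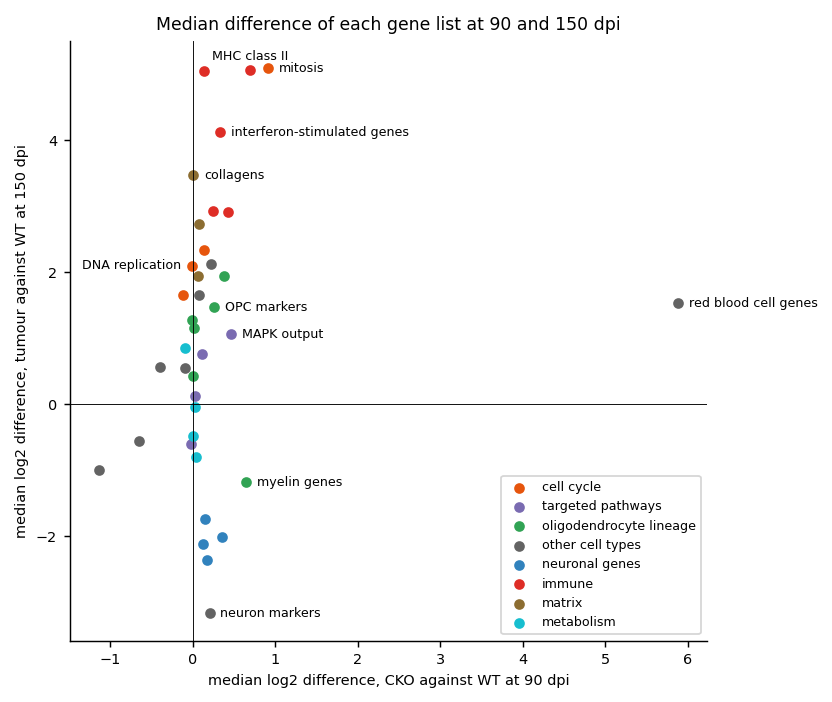
Median log2 difference of each of the 38 gene lists between CKO and WT at 90 dpi (horizontal axis) and between tumour and WT at 150 dpi (vertical axis), coloured by role. On the horizontal axis collagens lie at 0.01, mitosis at 0.92 and red blood cell genes (4 tested) far right at 5.88. The lists spread from -3.16 to 5.10 on the vertical one.

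Tumours also differed from one another along the chromosomes. For each animal the log2(CPM + 1) of 10601 genes was set against the median of the other animals of its group, and runs of neighbouring genes were taken where a running median over 9 genes passed 2 in size over at least 5 windows. A gene thus belongs to a run through its neighbours and need not differ itself, end genes included. Lamb1, Dcdc2c, B3gnt5, Dnajb11 and Tyrobp, members of high runs, lay below the median of the other tumours. The genes used had a mean of at least 10 CPM over the 13 animals at 150 dpi. Some passed only through the tumour where they were high. Zfp82, for example, was at 206 CPM in Tumor_16840 and at most 9.01 in the other tumours and 5.51 in WT. There were 12 such runs in 5 of the 7 tumours and none in the 30 other bulk animals. Animals at 12 and 90 dpi did not enter this filter, so these counts are not on equal terms. With windows of 15 genes there were 6 runs in tumours, and with a pseudocount of 5 CPM there were 11. Tumor_16840 held the strongest, 39 genes on chromosome 7 that begin with Zfp27, at a median of 4.94, with 4.91 and 5.02 in its libraries. Of these 39 genes 35 were among those called higher in tumours, against 24.3% of all genes tested, and these calls include Tumor_16840 itself. Zfp27 was called higher though the other tumours were at 16.7 to 24.6 CPM, against 21.2 to 33.4 in WT. For Capns1 the other tumours also lay above WT, at 99.8 to 356 CPM against 36.3 to 81.2. Capns1 lies in this run. Clip3, which encodes a microtubule linker, was at 8948 CPM there and at most 316 in the other tumours.

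Tumor_21354 held a run of 8 genes from Mrgpre to Ccnd1 near the end of chromosome 7 (143778363 to 144939925; median 3.83), which takes in Dhcr7, the actin regulator Cttn and the death adaptor Fadd. Tumor_16839 held 3 runs on chromosome 12: 7 genes from Pdia6 to Zfp125 (17266545 to 20921262; 4.02), 15 from Ywhaq to Dcdc2c (21390071 to 28552399; 2.45), which include Rrm2, Id2 and Sox11, and 24 from Lamb1 to Etv1 (31265234 to 38870484; 2.78). Tumor_21349 was high for 6 of those last genes, Bcap29 to Prkar2b (2.41). Tumor_16844 held 2 runs on chromosome 16, 15 genes from Ppm1f to Ranbp1 (16896469 to 18248732; 2.17), which include the adaptor Crkl, and 26 from B3gnt5 to Dnajb11 (19760208 to 22879634; 2.49), which include Etv5. The rest were 5 genes on chromosome 14 in Tumor_16839 (2.81), 5 of the MHC on chromosome 17, high in Tumor_21354 (2.53) and low in Tumor_16839 (-2.92), and 5 guanylate-binding proteins on chromosome 5 in Tumor_21354 (2.64). The 5 MHC genes, Psmb9, Tap1, Psmb8, H2-Ab1 and H2-Aa, are neighbours but not a single family, while the guanylate-binding proteins are related genes. Interferon is known to induce genes of both clusters, and its part in these runs was not tested.

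Whole autosomes moved in smaller steps. Over the same filtered genes, 17 autosomes in the 7 tumours had a median past 0.25 in size, at least 1 in every tumour. The other 30 animals had none. Tumor_21349 had 6, down to -0.63 for chromosome 16, and Tumor_16713 was at -0.48 for chromosome 10 and -0.37 for chromosome 12. DNA copy number was not measured here. Several of the highest single values above lie in these runs: Dhcr7 in Tumor_21354, Rrm2, Sox11 and Etv1 in Tumor_16839, Etv5 in Tumor_16844 and Capns1 in Tumor_16840. Ccnd1 lies in the run of Tumor_21354, but its highest value, in Tumor_21349, does not, and Met in Tumor_21349 and Mycn in Tumor_16839 lie outside the runs too.

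**Figure D5:**
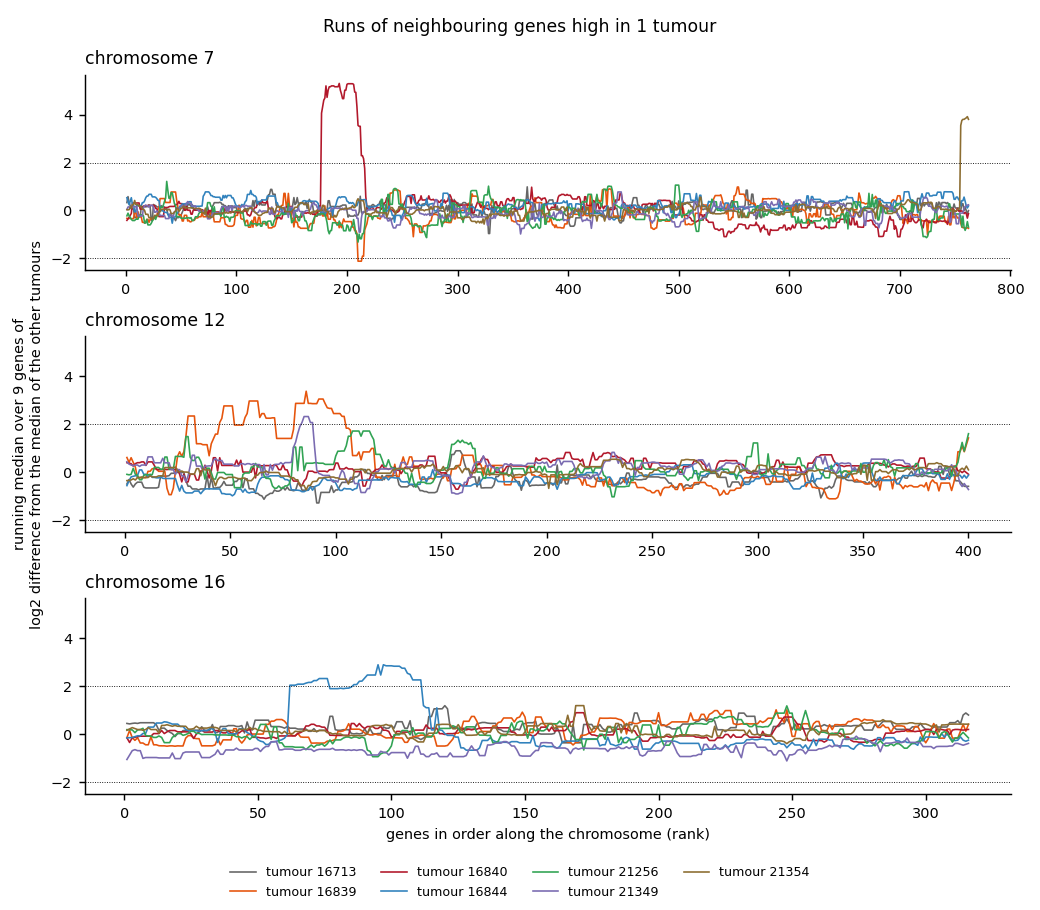
Running median over 9 neighbouring genes of the log2 difference of each tumour from the median of the other tumours, along chromosomes 7, 12 and 16 in gene order, with dotted lines at 2 and -2. The peaks are 5.30 for Tumor_16840 within its run of 39 genes on chromosome 7, 3.91 for Tumor_21354 near the end of chromosome 7, 3.38 for Tumor_16839 on chromosome 12 and 2.90 for Tumor_16844 on chromosome 16.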

How the data were processed

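The authors deposited a table of RSEM expected counts per gene, with 1 column per library per the file headers, and column totals differ as unscaled counts do. RSEM, Bowtie2 and the build GRCm38 are named in the submitters' processing notes, and versions are not given in the sources used here. The table holds 34623 genes and 92 spike-ins, and 34331 genes matched GENCODE M21, 93.2% with the same coordinates. Expected counts were rounded and summed per animal. The 192 small libraries of the series were not used, and 0 sample columns were unlisted.

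Genes were filtered with filterByExpr (minimum count 10, minimum total 15), scaled by TMM and tested with edgeR 4.0.16 (R 4.3.3) by the quasi-likelihood F test, with sex as covariate and all 37 bulk animals in 1 fit of 6 groups. Adjusted p is by Benjamini-Hochberg over all genes tested, with a threshold of 0.05. The 2-fold threshold was tested with glmTreat. CPM is counts per 1000000 after TMM. Permutation tests used log2 CPM with a prior count of 2. Alternatives included limma 3.58.1 (voom) and DESeq2 1.42.0. The fitting script was tested on simulated data. The labels do not say that animals of a group differ in litter or batch, and p-values measure only the spread between these animals.

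Members and gene lists were chosen with earlier results of these data known. Of 611 listed genes, 610 were in the table (H19 was not) and 591 were tested. Genes named are Nf1 and Trp53; the 8 largest rises and falls by log2 change among called protein-coding genes with a mean of at least 10 CPM and no overlap; the 6 largest rises and falls in mean CPM; and, per list, the 2 largest rises and falls among called members, plus members moving against the rest where there were at most 5. A few genes these rules name are not reported here. All other genes given with values were named after their values were seen. Of 175 named genes, 16 have a near-identical copy (95% identity or more along 50% or more of the shorter of both transcripts), and their reads may be shared. The analysis of neighbouring genes was added after the data were seen.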

Additional observations from a re-analysis of the deposited data

Results flagged for a closer look

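In 332 checks of a gene within a group, 27 single values stood apart from the rest of their group. Chance alone gives about 1 in 20. The measure was the gap to the next animal over the group's range, above Dixon's 95% critical value. Gap and range were taken in log2 CPM with a prior count of 2, and the values below are in CPM. Among tumours, Tumor_16840 was highest for Capns1 (7753 CPM), Tumor_21354 for Dhcr7 (598 CPM) and Tumor_16713 for Mobp (146.6 CPM). Low among tumours were Tumor_16844 for Cnpy1 (3.48 CPM) and Ankrd37 (0.431), Tumor_16713 for Pou4f1 (1.76), Dlx1 (0.110), Cox5a (24.1) and Mdm2 (56.9), Tumor_16839 for Cnp (55.2), Tumor_21349 for Cxcl12 (2.30) and Tumor_21354 for Rps2 (11.6).

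Among WT animals, WT_21592 was lowest for Trp53 (11.3 CPM), Aen (2.83), Rras (1.13), Igf2bp3 (9.64) and S100a4 (0) and highest for Gjb6 (43.1) and Cd44 (11.3). This animal had the fewest counts of the group. WT_21593 was lowest for Ndrg4 (2501 CPM) and Bbc3 (1.70), WT_22064 highest for Cspg5 (357.6) and WT_22062 lowest for Olig2 (58.5). For Cxcl10 (0.0945 CPM), Pou4f1 (0.0945) and Ube2c (1.51) in WT_21593 and Cnpy1 (0.290) in WT_21591 the other WT animals were all at 0, so any count meets this measure. Of these, Cxcl10 and Pou4f1 lie below the 0.203 to 1.30 CPM that a count of 0 allows in a WT animal, so that the animal cannot be said to stand apart. Cnpy1 is above the limit of WT_22064 (0.203) but below those of the other WT animals at 0 (0.302 to 1.30). For Cnpy1 the animal cannot be said to stand apart from these either.

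The genotype effect differed between 90 and 150 dpi, by the interaction term in edgeR, for every gene named by rank and given here. These genes were ranked by their difference at 150 dpi, which is part of that term. The choice thus favours a change, and the count is no separate evidence. On the log2 scale the change was 10.26 for Cxcl10, 8.20 for Ccnb1, 7.60 for Gm43302, 7.53 for Cnpy1, 7.48 for Col2a1, 7.24 for Pou4f1 and 7.16 for Nxf3. It was 3.83 for Ccnd1, 3.71 for Capns1, 1.73 for Ncan, 1.44 for Slc38a6, 1.05 for Ptprz1 and 1.00 for Noct. Downwards it was -7.17 for Trdn, -6.90 for Kcnh3, -6.62 for Penk, -6.45 for Epha6, -6.13 for Ankrd63, -6.05 for Fgf10, -5.84 for Prokr2 and -5.80 for Sp7. For the abundant genes it was -4.34 for Snap25, -4.25 for Ndrg4, -3.14 for Atp1b1, -2.46 for Apc and -1.96 for Gria2.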

How the results depend on the processing

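The count of 7556 genes fell to 2890 in males alone and to 4426 when counts were thinned to equal depth (2316668 per animal), fits with fewer animals or fewer counts; 2867 and 4398 of these were among the 7556. The other settings gave 5187 (13 animals alone) to 8017 (DESeq2), and leaving out 1 animal gave 6972 to 7884. RLE size factors and DESeq2 raised the share of higher calls from 52.6% to 62.1% and 62.2%, and for the change of effect from 90 to 150 dpi from 47.2% to 57.3% and 58.6%. The exact permutation difference of Trp53 was 0.58 (p 0.152) with the deepest library per animal and 0.52 to 0.93 (p 0.00216 to 0.106) leaving out 1 animal. No paired analysis was possible because no animal number is shared between groups. Of the named genes, Mdm2 (not called) changed sign to 0.0052 in the 13 animals alone, 0.106 with DESeq2, 0.108 with RLE size factors, 0.0214 in males alone, 0.0557 at a mean of at least 10 CPM and 0.0377 when thinned, and ran from -0.0772 to 0.0414 leaving out 1 animal. Mycn (not called) changed sign to -0.54 with limma-voom and -1.27 without Tumor_16839 (up to 1.15 leaving out another animal). List medians changed sign at a mean of at least 10 CPM for astrocyte markers (-0.05) and chemokines (-0.67). The cause of these changes was not tested. WT animals had fewer counts than most tumours, so low genes are less precise there.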
